A study of Mus musculus with 6 samples.

Results

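Voltage-gated sodium, calcium and potassium channels let ions cross the membrane of neurons, muscle and other excitable cells when the membrane voltage shifts. Their mRNAs were followed here in small extracellular vesicles (sEV), the membrane-enclosed particles in which cells shed RNA and protein. The genes were chosen by symbol among the protein-coding genes of GENCODE release M21. They comprise the sodium channel genes Scn with a number and the letter a or b, the calcium channel genes Cacna1, Cacna2d, Cacnb and Cacng, and the potassium channel genes Kcna, Kcnb, Kcnc, Kcnd, Kcnh, Kcnq and Kcnj. The rule found 85 genes in 13 families, of 53379 listed Ensembl identifiers and 21865 protein-coding genes, and used no measured value. The series comprises 6 libraries of vesicle RNA from primary cortical neurons of wild-type (WT) mouse embryos. In 3 of them, HypEV, the neurons carry the treatment label OGD/R and are called hypoxic in the series text. In the other 3, NorEV, they carry the label control and are called normoxic. The labels do not spell out OGD/R, its length or the age of the embryos, and they do not say whether libraries of a group came from separate cultures. The p-values therefore speak only to the variation among these libraries, part or all of which may be technical. The comparison asks which channel mRNAs differ between the vesicles of treated and of control neurons.

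The channels share a common plan. The alpha subunits of sodium channels (Scn1a to Scn11a) and the alpha-1 subunits of calcium channels (Cacna1) are long chains that form the whole pore, while potassium channels assemble it from separate subunits, each a shorter chain. In neurons, sodium channels carry the upstroke of the action potential, potassium channels of the Kcna, Kcnb, Kcnc, Kcnd, Kcnh and Kcnq families end it and set the firing rate, and calcium channels open transmitter release. The products of Cacna2d, Cacnb, Cacng and the beta subunit genes of sodium channels (Scn with the letter b) are auxiliary subunits that set surface level and gating. Kcnj genes encode inward rectifiers, which lack a voltage sensor of the usual kind and hold the resting potential. Most of these genes are known from specific tissues: Scn4a and Cacna1s from skeletal muscle, Scn10a and Scn11a from sensory neurons, Cacna1f from retina and Kcnj10 from astrocytes.

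The members of a family are alike in the segments that sense voltage and conduct ions, and reads from such segments can be placed on more than 1 gene. Of the 85 genes, 24 shared at least 1 window of 50 nucleotides with another member in their longest GENCODE transcripts, in 27 pairs. The share of windows found in another member was 8.05% in Scn3a, 7.79% in Scn2a, 5.41% in Scn1a and 5.36% in Scn9a, which lie near each other on chromosome 2, and 2.81% in Kcna5. It was 2.002% in Scn10a and lower in the others, with 1.37% in Kcna6. The stretch common to Kcna5 and Kcna6 is shown because it codes for a part that defines the family. Kcna5 also had the smallest p of the channel genes, and reads wholly within the stretch cannot be told apart between the pair. Capitals mark the bases common to both genes, with 15 bases on either side in lower case, written 5′ to 3′ as the mRNA reads, from GENCODE M21 transcripts on GRCm38.
Kcna5 and Kcna6 share 91 nucleotides of exon 1 that hold the code for the voltage-sensing transmembrane segment (Kcna5 chr6:126533950-126534040, Kcna6 chr6:126738852-126738942, both on the minus strand).
Kcna5: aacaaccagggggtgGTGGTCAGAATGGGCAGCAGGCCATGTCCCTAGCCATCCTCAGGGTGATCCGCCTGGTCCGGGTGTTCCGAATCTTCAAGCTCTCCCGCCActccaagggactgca
Kcna6: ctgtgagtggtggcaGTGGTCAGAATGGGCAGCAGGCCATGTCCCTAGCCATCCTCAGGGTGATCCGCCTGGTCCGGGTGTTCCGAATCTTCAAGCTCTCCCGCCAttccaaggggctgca

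Depth was modest for single genes. HypEV libraries held 1320915 to 2141609 gene-assigned fragments and NorEV libraries 1092723 to 1494498, as recovered from the step size of the values. A channel gene held 0 to 447 reads in a library, with a median of 44. The libraries differed in the share of reads on Gm23935, an annotated microRNA gene, which took 49.3%, 1.94% and 24.2% in HypEV 1, 2 and 3, against 4.27%, 0.548% and 0.294% in NorEV 1, 2 and 3. The annotation alone does not show that these reads come from a microRNA, and their origin was not tested. FPKM (fragments per kilobase of transcript, relative to library size) is scaled to all fragments of a library, so a library with many Gm23935 reads lists lower values for other genes. The median over all protein-coding genes was 3.53, 8.22 and 5.05 FPKM in HypEV, against 6.72, 7.24 and 8.21 FPKM in NorEV. Relative to reads on protein-coding genes, the channel genes took 0.566%, 0.568% and 0.526% in HypEV, against 0.563%, 0.572% and 0.615% in NorEV.

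Reads were assigned to every channel gene, as to most protein-coding genes, at levels within the range of other genes. All 85 genes had a mean of at least 1 FPKM over the 6 libraries, as did 20356 of the 21865 protein-coding genes. By library, 97.6 to 100% of the channel genes were above 0, beside 88.5 to 95.2% of protein-coding genes. Above 0 in all 6 libraries were 82 channel genes, beside 18023 protein-coding genes. The other channel genes were Kcna3, listed at 0 in HypEV 1 and 3, Kcna10 in HypEV 1, and Kcnj13 in HypEV 3. The median channel gene stood at 3.22, 6.71 and 5.08 FPKM in HypEV 1, 2 and 3, and at 6.11, 6.65 and 8.24 FPKM in NorEV 1, 2 and 3. Divided by the median of all protein-coding genes this gave 0.914, 0.816 and 1.005 in HypEV, against 0.910, 0.918 and 1.004 in NorEV. Fewer neurons or vesicles giving the RNA and less RNA in each cannot be told apart in such bulk samples.

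**Figure D1:**
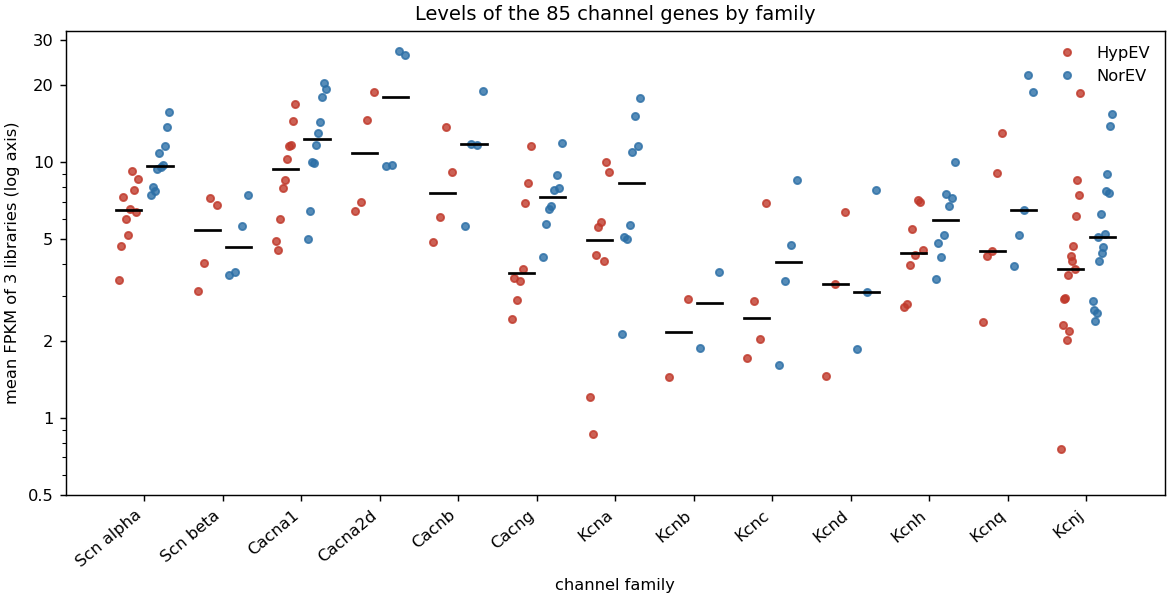
Mean FPKM of each of the 85 channel genes in HypEV (red, 3 libraries) and NorEV (blue, 3 libraries) on a log axis, by family, with black bars at the median over the genes of a family. The medians of calcium channel genes of the Cacna1 and Cacna2d families are among the highest and those of Kcnb, Kcnc and Kcnd the lowest in both kinds of vesicle.

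By mean FPKM over the 6 libraries, the families ran in order from calcium channel genes at the top to Kcnc, Kcnd and Kcnb genes at the bottom. The median gene of a family had 14.7 FPKM in Cacna2d (4 genes), 10.9 in Cacna1 (10 genes), 10.9 in Cacnb (4 genes), 8.07 in the sodium channel alpha genes (10 genes) and 7.02 in Kcna (8 genes). It was 5.63 in Kcnh (8 genes), 5.51 in Kcnq (5 genes), 5.46 in Cacng (8 genes), 5.17 in the sodium channel beta genes (4 genes), 4.35 in Kcnj (15 genes), 3.27 in Kcnc (4 genes), 3.24 in Kcnd (3 genes) and 2.49 in Kcnb (2 genes). Family ranges overlapped widely: Kcnj genes ran from 1.80 to 17.05 FPKM and Kcna genes from 1.67 to 13.5 FPKM. The highest 5 genes were Cacna2d3 (22.5 FPKM), Cacna2d4 (20.97), Cacna1b (18.1), Cacna1e (17.5) and Kcnj5 (17.05), and the lowest were Kcnd2 and Kcnb2. Single libraries of the top genes crossed each other. Cacna2d3 ranged from 12.6 to 30.8 FPKM over the 6 libraries, Cacna1b from 14.8 to 25.7 FPKM and Kcnj5 from 7.70 to 25.98 FPKM, so neighbours in this order did not differ beyond their spread.

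All 10 sodium channel alpha genes were read in every library, those known from brain and those known from other tissues. Scn11a, a channel of pain-sensing neurons, had the highest mean of the family and the smallest p. It was listed at 4.67, 15.7 and 5.39 FPKM in HypEV 1, 2 and 3, against 11.2, 17.2 and 19.1 FPKM in NorEV 1, 2 and 3. In limma its log2 fold change was -0.96 ± 0.53 SE, with an adjusted p of 0.741 over all tested genes. HypEV 2 lay within the NorEV range and the other HypEV libraries below it. Scn1a, the main sodium channel of inhibitory interneurons, had 6.96, 10.6 and 10.2 FPKM in HypEV, against 14.6, 6.33 and 8.30 FPKM in NorEV, so the groups overlapped fully (-0.02 ± 0.47 SE). Scn2a, the early channel of the axon initial segment of excitatory neurons, had 3.61, 10.1 and 8.30 FPKM in HypEV, against 9.63, 6.65 and 6.96 FPKM in NorEV (-0.15 ± 0.51 SE). Its lowest and its highest value both came from HypEV libraries.

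Scn3a, a sodium channel of the embryonic brain, stood below the NorEV 2 and 3 values in all HypEV libraries but did not separate the groups. It had 3.13, 6.58 and 5.94 FPKM in HypEV, against 5.74, 13.99 and 13.02 FPKM in NorEV (-0.90 ± 0.53 SE as the log2 fold change, adjusted p = 0.750). Scn8a, the channel of mature initial segments and nodes of Ranvier, had 5.23, 11.01 and 7.08 FPKM in HypEV, against 10.5, 12.6 and 11.8 FPKM in NorEV (-0.57 ± 0.44 SE). Scn4a of skeletal muscle was listed at 2.12, 6.71 and 5.28 FPKM in HypEV and at 8.32, 6.01 and 9.74 FPKM in NorEV (-0.74 ± 0.54 SE). In Scn4a and Scn8a alike HypEV 1 held the lowest value of the 6 libraries.

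The sodium channel beta genes, whose products are single-span adhesion proteins that bind the alpha chain, were read at lower levels. Scn2b had 5.62, 10.99 and 3.74 FPKM in HypEV, against 6.29, 8.81 and 7.19 FPKM in NorEV (log2 fold change -0.21 ± 0.51 SE), with the NorEV values inside the HypEV range. The means of Scn3b and Scn4b over the 6 libraries lay below that of Scn2b, with Scn3b lowest at 3.39 FPKM.

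Among the pore-forming calcium channel genes, those of presynaptic terminals stood beside those of muscle and retina. Cacna1b encodes the N-type channel of presynaptic terminals and lies on chromosome 2 from 24603887 to 24763152 (GRCm38). It had 14.8, 19.2 and 16.7 FPKM in HypEV, against 25.7, 15.8 and 16.6 FPKM in NorEV (-0.16 ± 0.39 SE as the log2 fold change, adjusted p = 0.924), and rested on 215 to 308 reads in a library. The NorEV 1 value was the highest and the other 5 libraries lay together. Cacna1a, the P/Q-type channel of presynaptic terminals, had 6.30, 9.51 and 8.02 FPKM in HypEV, against 7.505, 12.1 and 10.2 FPKM in NorEV (-0.28 ± 0.43 SE). Cacna1c, the L-type channel of heart, smooth muscle and neurons, had 5.75, 16.03 and 9.26 FPKM in HypEV, against 11.8, 11.4 and 15.9 FPKM in NorEV (-0.39 ± 0.48 SE). HypEV 2 was the highest library of Cacna1c and HypEV 1 the lowest, so the groups overlapped.

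Cacna1d, the other L-type channel of neurons and of pacemaker cells, had the smallest p of the family. Its values were 8.65, 15.4 and 11.1 FPKM in HypEV, against 14.4, 23.2 and 16.4 FPKM in NorEV (-0.59 ± 0.42 SE as the log2 fold change, adjusted p = 0.779). Cacna1s, the L-type channel of skeletal muscle, had 4.48, 20.8 and 9.45 FPKM in HypEV, against 11.4, 12.7 and 18.9 FPKM in NorEV (-0.48 ± 0.57 SE). Cacna1f, the L-type channel of photoreceptors, had 3.03, 11.7 and 3.32 FPKM in HypEV, against 4.28, 11.9 and 14.05 FPKM in NorEV (-0.74 ± 0.65 SE). In both of these tissue-restricted genes HypEV 2 was level with the NorEV libraries or above them, and Cacna1s had a higher mean (12.96 FPKM over 6 libraries) than Cacna1a. An antisense gene, Gm37759, covers 19.98% of the exons of Cacna1s on the opposite strand, and the sources used here do not say whether the counting kept the strand.

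The auxiliary calcium channel subunits held the highest values of all channel genes. Cacna2d3, whose product anchors the channel at synapses, had 12.6, 25.6 and 18.2 FPKM in HypEV, against 17.6, 30.3 and 30.8 FPKM in NorEV (log2 fold change -0.47 ± 0.43 SE). Cacna2d4, known from retina, had 14.2, 19.8 and 10.05 FPKM in HypEV, each below the 32.8, 23.9 and 25.02 FPKM of NorEV (-0.88 ± 0.41 SE, adjusted p = 0.720). Cacnb3, a cytoplasmic beta subunit on chromosome 15 from 98630840 to 98644529, had 9.11, 11.04 and 7.25 FPKM in HypEV, each below the 14.6, 25.9 and 16.9 FPKM of NorEV (-0.97 ± 0.42 SE, unadjusted p = 0.0486, adjusted p = 0.720). Cacng8, which encodes a partner of AMPA receptors in forebrain, had 7.14, 16.4 and 11.2 FPKM in HypEV, against 9.65, 9.70 and 16.2 FPKM in NorEV (-0.06 ± 0.47 SE). Cacng6, known from muscle, had 1.42, 6.998 and 3.06 FPKM in HypEV, against 3.70, 8.95 and 10.8 FPKM in NorEV (-0.94 ± 0.65 SE). Cacnb2, named after its values were seen, was 1 of the 9 channel genes with a positive log2 fold change, at 11.7, 16.2 and 13.4 FPKM in HypEV, against 12.4, 9.42 and 13.4 FPKM in NorEV (0.22 ± 0.40 SE).

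In the Kcna family, whose products are Shaker-type delayed rectifiers and A-type channels, 2 genes had the largest negative fold changes of all 85. Kcna5, a delayed rectifier of heart and smooth muscle that is also made in brain cells, is a gene of 1 exon on chromosome 6 from 126532551 to 126535412 on the minus strand. It had 1.47, 5.80 and 5.03 FPKM in HypEV (9, 24 and 19 reads), against 13.4, 13.3 and 18.9 FPKM in NorEV (42, 54 and 81 reads). All 3 HypEV values lay below all 3 NorEV values. On FPKM as deposited the counting intervals of the groups did not meet. The highest HypEV bound was 8.63 FPKM and the lowest NorEV bound 9.68 FPKM (exact Poisson, 95%, counting error only). This gap is stated for that scale alone, and no such intervals were taken relative to protein-coding reads. The log2 fold change was -1.78 ± 0.53 SE with an unadjusted p of 0.00945 and an adjusted p of 0.632, so Kcna5 did not pass. Kcna5 and Kcna6 share the voltage-sensor stretch printed above, and Kcna6 had 3.28, 6.64 and 6.88 FPKM in HypEV, against 4.55, 6.30 and 6.19 FPKM in NorEV.

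Kcna10, a channel of kidney and inner ear that was named after its values were seen, was read at few copies. It had 0, 1.81 and 0.791 FPKM in HypEV (0, 5 and 2 reads), against 4.78, 7.03 and 3.498 FPKM in NorEV (10, 19 and 10 reads). The groups did not overlap (log2 fold change -1.79 ± 0.68 SE, unadjusted p = 0.0279, adjusted p = 0.720), and the count of 0 in HypEV 1 allows up to 0.732 FPKM. Kcna4, the A-type channel of axons, had 3.80, 14.002 and 9.64 FPKM in HypEV, against 19.5, 19.5 and 14.5 FPKM in NorEV (-1.03 ± 0.51 SE, adjusted p = 0.724). HypEV 2 lay just under NorEV 3. Kcna3, also named after its values were seen, had 0, 3.64 and 0 FPKM in HypEV, against 0.962, 2.60 and 2.81 FPKM in NorEV, with 0 reads allowing up to 0.736 FPKM in HypEV 1 and 1.19 FPKM in HypEV 3.

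The Kcnb, Kcnc and Kcnd genes, which make the main delayed rectifier, the fast-spiking and the dendritic A-type currents of cortical neurons, had the lowest family medians. Single genes stood higher: Kcnc2 was 34th and Kcnd3 41st of the 85 genes by mean FPKM, at 7.72 and 7.07 FPKM, above the 6.45 FPKM of the median channel gene. Kcnc2, a fast-spiking channel, had 5.37, 10.01 and 5.40 FPKM in HypEV, against 8.89, 9.39 and 7.29 FPKM in NorEV (log2 fold change -0.31 ± 0.46 SE). Kcnc4 had 0.764, 2.45 and 2.89 FPKM in HypEV, against 2.496, 4.44 and 7.30 FPKM in NorEV (-0.91 ± 0.64 SE, adjusted p = 0.778). Kcnd3, an A-type channel of brain and heart, was the most even of these at 6.38, 5.89 and 6.86 FPKM in HypEV, against 7.02, 9.47 and 6.81 FPKM in NorEV (-0.24 ± 0.44 SE). The groups overlapped in each of these 3 genes. Kcnd2, the chief dendritic A-type channel of forebrain, had the lowest mean of all 85 genes, 1.65 FPKM.

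Kcnh and Kcnq genes encode channels that open slowly and damp repeated firing. Kcnh5, of the ether-a-go-go type, had 5.18, 5.63 and 2.80 FPKM in HypEV, each below the 8.80, 13.9 and 7.42 FPKM of NorEV (log2 fold change -0.996 ± 0.50 SE, adjusted p = 0.724). Kcnq3, a subunit of the channel of the neuronal M-current, had 2.80, 6.38 and 4.35 FPKM in HypEV, against 7.12, 5.56 and 6.85 FPKM in NorEV (-0.49 ± 0.50 SE). HypEV 2 lay within the NorEV range and the other HypEV libraries below it. Kcnq1, the channel of heart and inner ear on chromosome 7 from 143106362 to 143427042, had 7.71, 10.05 and 9.497 FPKM in HypEV, each below the 12.99, 26.6 and 26.3 FPKM of NorEV (-1.13 ± 0.44 SE, unadjusted p = 0.0308, adjusted p = 0.720). Its antisense neighbour Kcnq1ot1 covers 2.96% of its exons on the opposite strand.

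The inward rectifiers had the widest range of mean levels of any family. Kcnj5, a G-protein-gated channel of heart, adrenal gland and some neurons, lies on chromosome 9 from 32314707 to 32344350. It had 20.1, 13.1 and 22.6 FPKM in HypEV, against 25.98, 7.70 and 12.7 FPKM in NorEV (0.38 ± 0.51 SE as the log2 fold change, adjusted p = 0.847), the largest positive fold change of the 85 genes. Its 3 highest values came from HypEV 1, HypEV 3 and NorEV 1, which are also the libraries with the highest Gm23935 shares; the part of that share in the result was not tested. Kcnj10, the potassium channel of astrocytes, had 2.25, 2.05 and 2.66 FPKM in HypEV, against 1.18, 3.01 and 3.71 FPKM in NorEV (-0.06 ± 0.62 SE). Kcnj13, a channel of choroid plexus and retinal pigment epithelium, had 2.21, 4.36 and 0 FPKM in HypEV (6, 8 and 0 reads), each below the 6.49, 5.57 and 6.85 FPKM of NorEV (9, 10 and 13 reads; -1.50 ± 0.72 SE, adjusted p = 0.720). Exons of Gigyf2 cover 49.1% of those of Kcnj13 on the opposite strand, and Gigyf2 had 11.2 to 19.97 FPKM in HypEV, against 14.7 to 22.8 FPKM in NorEV.

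**Figure D2:**
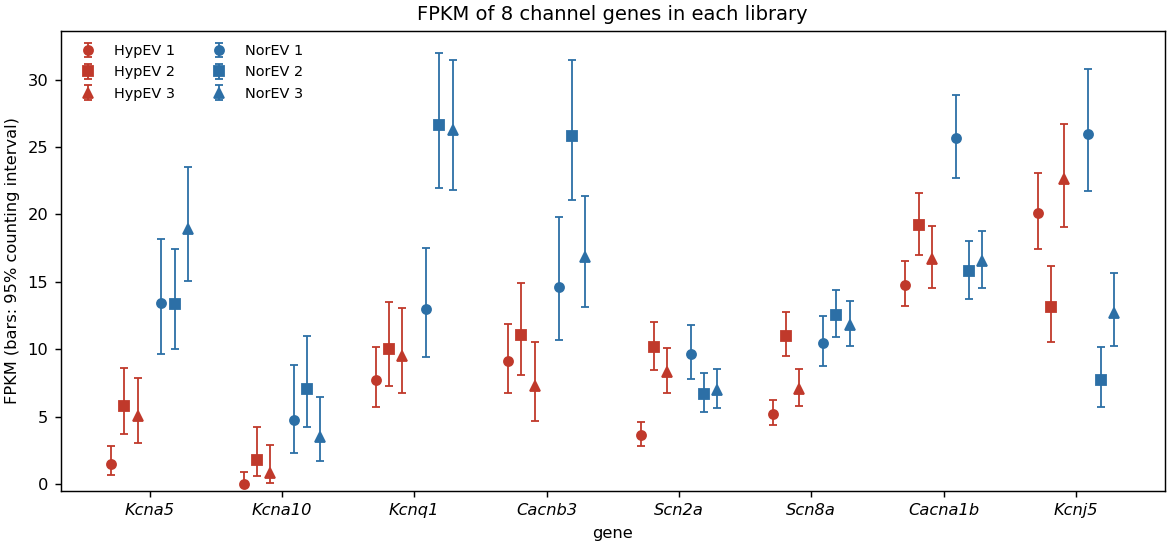
FPKM of 8 channel genes in each library, HypEV in red and NorEV in blue, with exact Poisson 95% intervals of the reads as bars (counting error only). Kcna5, Kcna10, Kcnq1 and Cacnb3 show all HypEV values below all NorEV values, while Scn2a, Scn8a, Cacna1b and Kcnj5 overlap; Kcna10 was chosen after its values were seen.

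The level of a channel gene went with the number of exons in its longest transcript. The 3 genes of 1 exon had a median of 1.47 to 3.64 FPKM in HypEV libraries and 2.04 to 2.98 FPKM in NorEV libraries. The 7 genes with over 40 exons, all of the Cacna1 family, had medians of 6.30 to 16.03 FPKM in HypEV libraries and 11.8 to 16.4 FPKM in NorEV libraries. Of 19 genes above 10 FPKM 13 had at least 11 exons, and of 9 genes under 3 FPKM 0 did, where 40 of the 85 genes have that many. Across the 85 genes Spearman's rho between exon number and FPKM was 0.469, 0.544 and 0.336 in HypEV 1, 2 and 3, and 0.389, 0.498 and 0.495 in NorEV 1, 2 and 3. These genes share a library and are no independent replicates, and FPKM divides by transcript length. Across 21780 other protein-coding genes rho was also positive, 0.334 to 0.365 in HypEV libraries and 0.362 to 0.389 in NorEV libraries. Length itself gave rho of 0.0630 to 0.236 across the channel genes and GC content gave -0.0845 to 0.0907.

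**Figure D3:**
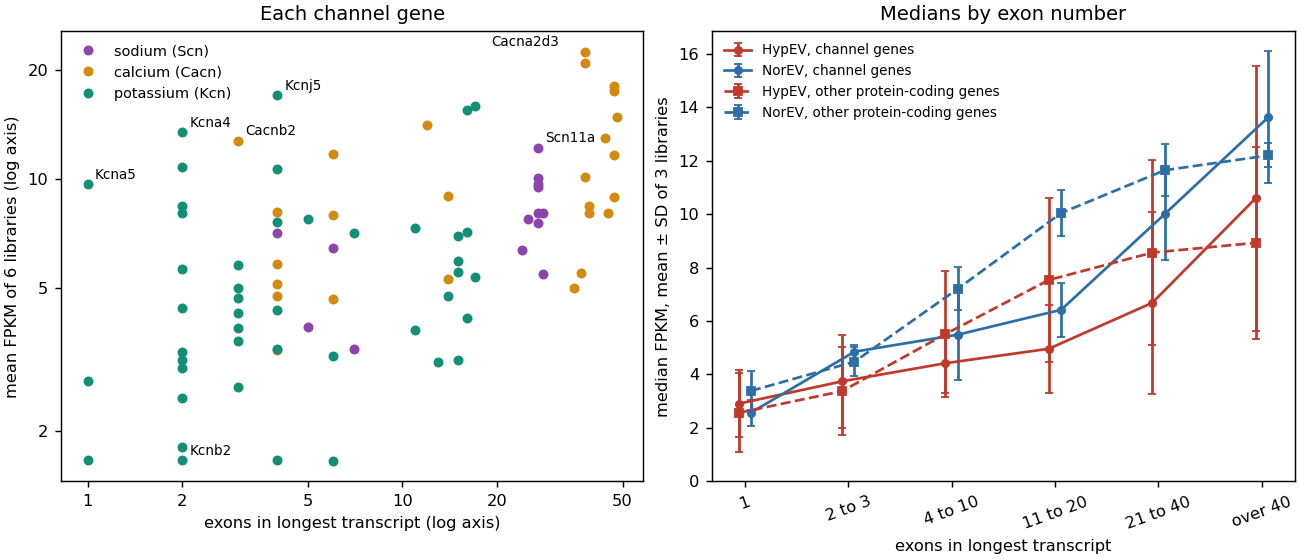
Left, mean FPKM over 6 libraries (log axis) of each channel gene against the exons of its longest transcript (log axis), coloured by ion. Right, median FPKM of channel genes (solid) and other protein-coding genes (dashed) by exon number, as mean ± SD over 3 HypEV (red) and 3 NorEV (blue) libraries; medians rise with exon number in both gene sets.

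Exceptions to that trend were genes of few exons read at high levels. Kcna4 (2 exons), Kcnj5 (4 exons) and Cacnb2 (3 exons in its longest transcript) had means of 13.5, 17.05 and 12.8 FPKM. The exons of all annotated transcripts together were 2.63 times as long as the longest transcript in Cacnb2 and 2.36 times in Cacna2d3, and reads from exons outside the longest transcript add to a value that is divided by its length alone. Across the channel genes this ratio and FPKM had rho of 0.381 to 0.421 in HypEV libraries and 0.345 to 0.402 in NorEV libraries.

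Channels known from brain neurons and channels known from other tissues were both read in the vesicles. Of 33 brain neuron channels 18 (54.5%) were among the 42 genes with the highest means, and of 14 peripheral channels, known mainly from muscle, heart, sensory neurons, retina and epithelia, 7 were. The median brain neuron channel had 3.58, 6.76 and 5.40 FPKM in HypEV 1, 2 and 3, against 6.46, 6.65 and 7.29 FPKM in NorEV 1, 2 and 3. The median peripheral channel had 2.60, 7.32 and 4.34 FPKM in HypEV, against 7.40, 9.41 and 9.85 FPKM in NorEV. Every NorEV library thus had the peripheral median above the brain median, at a brain to peripheral ratio of 0.872, 0.707 and 0.740, and HypEV libraries had ratios of 1.38, 0.923 and 1.25. The lists differ in median exon number (14 and 10) and were chosen with earlier results of these data known, so no test is given.

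**Figure D4:**
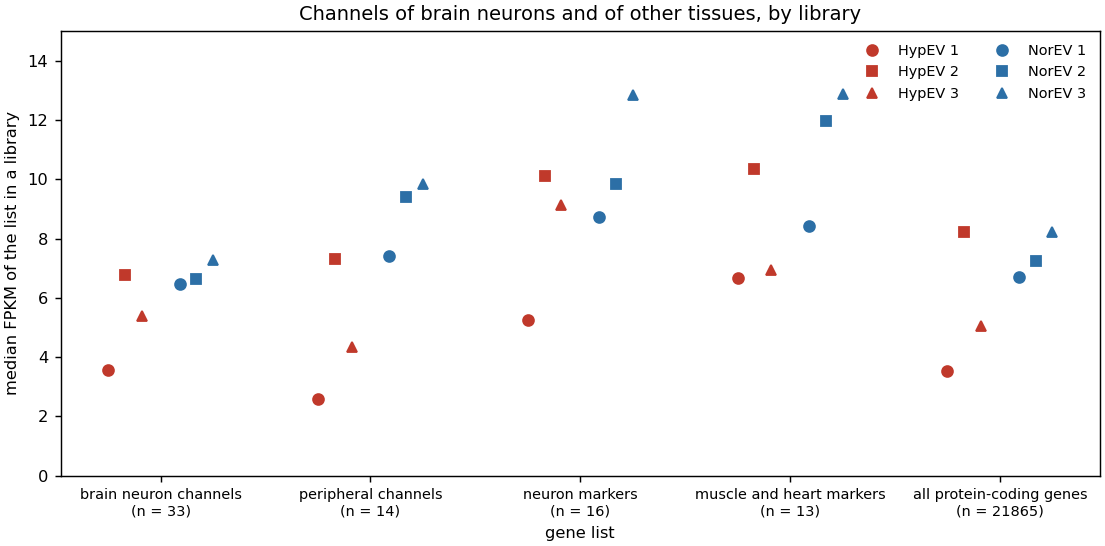
Median FPKM of brain neuron channels, peripheral channels, neuron markers, muscle and heart markers and all protein-coding genes in each library, HypEV in red and NorEV in blue. In the 2 channel lists the HypEV medians reach from 2.60 to 7.32 FPKM and the NorEV medians from 6.46 to 9.85 FPKM.

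Reads were assigned to the defining markers of the labelled cell type, and also to those of cells that a cortical culture should lack. For comparison, 18023 of 21865 protein-coding genes were above 0 in all libraries. A count of markers above 0 therefore does not by itself show that a cell type was present. All 16 neuron markers, among them Tubb3, Map2 and Snap25, were above 0 in all libraries, with a summed level of 104 to 179 FPKM in HypEV and 157 to 188 FPKM in NorEV. All 13 muscle and heart markers, Ttn, Ryr1 and Ckm among them, were above 0 in all libraries too, with summed levels of 94.4 to 181 FPKM in HypEV and 158 to 209 FPKM in NorEV. The ratio of the neuron to the muscle median was 0.785, 0.977 and 1.32 in HypEV, against 1.03, 0.820 and 0.999 in NorEV. Astrocyte markers (10 of 10 above 0 in all libraries) summed to 58.8 to 120 FPKM in HypEV and 81.8 to 112 FPKM in NorEV. Microglia markers (8 of 10) summed to 67.4 to 118 FPKM in HypEV and 92.2 to 122 FPKM in NorEV. Oligodendrocyte lineage markers (7 of 10) summed to 36.6 to 80.9 FPKM in HypEV and 60.8 to 84.3 FPKM in NorEV, and endothelial and mural markers (10 of 11) to 65.6 to 164 FPKM in HypEV and 149 to 221 FPKM in NorEV. None of these lists had a marker at 0 in all libraries, and 0 of their tested genes passed.

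No channel gene passed the test of HypEV against NorEV, and nearly all were listed lower in HypEV, as were most other genes. limma called 0 of 85 channel genes at an adjusted p under 0.05, where it called 7 of 44125 tested genes (0.0159%) and 0 of 20356 protein-coding genes. At an unadjusted p under 0.05, 0 channel genes were higher (0.635% of all tested genes) and 4 were lower, Kcna5, Kcna10, Kcnq1 and Cacnb3. That is 4.71% of the channel genes, beside 6.13% of all tested genes and 4.25% of protein-coding genes. With limma-voom on recovered reads 0 of 81 channel genes passed as well, of 57 genes called (0.135%). There, 2 channel genes were higher (Cacnb2 and Kcnj5) and 3 lower (Kcna5, Kcna10 and Scn9a) at an unadjusted p under 0.05. The shares were 2.6% and 4.43% of all genes, and 2.67% and 4.06% of protein-coding genes. With weights for each library 18 channel genes, all lower in HypEV, had an unadjusted p under 0.05 (smallest adjusted p = 0.115), beside 20.3% of all tested genes that were lower at that p. With the replicate number as a block there were 3, all lower, beside 6.81%.

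Of the fold changes of channel genes 9 were positive (10.6%, beside 25.1% of all tested genes) and 76 negative (89.4%, beside 74.9%). Among protein-coding genes 19.5% were positive and 80.5% negative. The median log2 fold change was -0.47 over the channel genes, -0.44 over all tested genes and -0.42 over protein-coding genes. Without HypEV 1, the library with the highest Gm23935 share, the median was -0.25 over the channel genes, beside -0.20 over all tested genes. Without HypEV 3, the next highest, it was -0.38, beside -0.41. These values follow the scaling. With FPKM rescaled to the sum over protein-coding genes the median was -0.27 over the channel genes, as over all genes, with 23 positive (beside 33.7% of all genes) and 62 negative (beside 66.3%). On that scale 31.4% of protein-coding genes were positive and 68.6% negative. Of the channel genes 0 passed there (beside 0.00683% of all genes). At an unadjusted p under 0.05, 0 were higher (beside 1.18%) and 3 lower (beside 5.3%). Among protein-coding genes these shares were 0.496% and 3.80%. With each library centred on its median the median log2 fold change was -0.02 for channel genes and 0.01 for all genes. On recovered reads scaled to protein-coding reads 36 channel genes were higher and 45 lower, beside 46.1% and 53.9% of all genes. The shares among protein-coding genes were 48.2% and 51.8%.

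**Figure D5:**
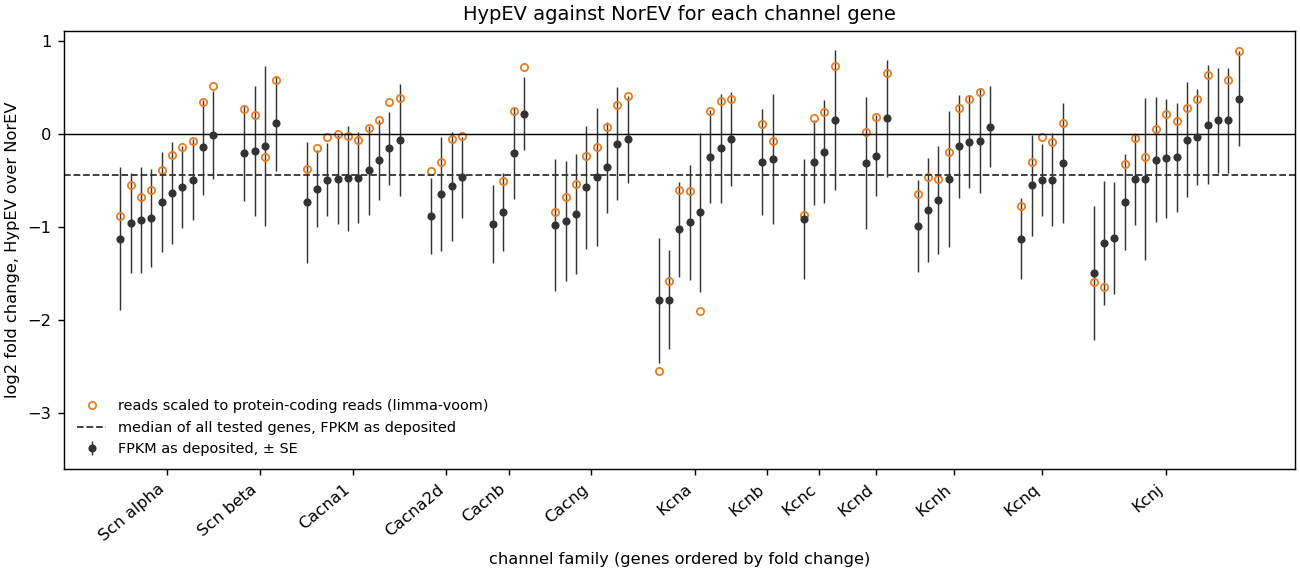
Log2 fold change, HypEV over NorEV, of each of the 85 channel genes by family: FPKM as deposited with standard errors (black) and reads scaled to protein-coding reads in limma-voom (orange, 81 genes). The dashed line is the median of all tested genes, -0.44, and most black points lie around it, with Kcna5 and Kcna10 lowest and 0 genes past the threshold.

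The 3 HypEV values lay below all 3 NorEV values in 15 channel genes (17.6%, beside 10.8% of all tested genes and 12.9% of protein-coding genes) and above them in 0 (beside 1.1%). They include Cacna1e, Cacna2d4, Cacnb1, Cacnb3, Kcna4, Kcna5, Kcna10, Kcnh1, Kcnh5, Kcnj1, Kcnj6, Kcnj13, Kcnq1 and Kcnq5. After rescaling to protein-coding genes 16 lay below (18.8%, beside 9.31%) and 1 above, Cacnb2 (1.18%, beside 2.4%), and Kcnh5 was no longer among those below. Of protein-coding genes 10.9% lay below and 2.48% above after rescaling. On the same rescaled values, limited to genes with recovered reads, 14 of 81 channel genes lay below and 1 above. Beside these, 9.24% of all such genes and 10.96% of protein-coding genes lay below. The shares above were 2.39% and 2.51%. This count is no separate check by limma-voom. Kcna5 and Kcna10 kept a low level in HypEV relative to protein-coding reads as well. Kcna5 held 10.6, 21.5 and 25.2 reads per 1000000 protein-coding reads in HypEV, against 51.8, 49.3 and 69.6 in NorEV, with a log2 fold change of -1.58 ± 0.53 SE in limma-voom (unadjusted p = 0.00406, adjusted p = 0.379). Cacnb2 held 149, 106 and 118 reads per 1000000 protein-coding reads in HypEV, against 83.8, 61.1 and 86.8 in NorEV (0.71 ± 0.33 SE, adjusted p = 0.671).

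By list, the peripheral channels had the most negative median fold change. The lists were chosen with earlier results of these data known, and their genes share the same libraries, so no test is given. All 14 peripheral channels were lower in HypEV, with a median log2 fold change of -0.93. That count depends on the genes listed, as the list leaves out others tied above to heart, smooth muscle or retina. Among those, Kcnj5 was higher (0.38), and Kcna5 (-1.78), Cacna2d4 (-0.88), Cacna1c (-0.39) and Kcnd3 (-0.24) were lower. In limma-voom Kcnj5 (0.89), Kcnd3 (0.18) and Cacna1c (0.07) were higher, and Kcna5 (-1.58) and Cacna2d4 (-0.40) lower. Of 33 brain neuron channels 2 were higher and 31 lower, with a median of -0.31, beside -0.44 over all tested genes. After rescaling to protein-coding genes the medians were -0.75 and -0.12, beside -0.27, and in limma-voom all 14 peripheral channels were still lower (median -0.58) with 17 of 31 brain neuron channels higher (0.10), beside -0.07 over all genes. The muscle and heart markers, of which 13 of 13 were lower, had a median of -0.51, and the neuron markers, of which 12 of 16 were lower, one of -0.39. Endothelial and mural markers, of which 8 of 10 were lower, had a median of -0.60. At an unadjusted p under 0.05 in limma, 3 of these 10 markers, 2 of 14 peripheral channels and 1 of 10 microglia markers were lower. In the other lists 0 were. Beside these, 6.13% of all tested genes and 4.25% of protein-coding genes were lower at that p. The smallest adjusted p of the endothelial and mural markers was 0.622, in Acta2 of smooth muscle. The median was -0.44 for oligodendrocyte lineage markers (6 of 10 lower), -0.25 for microglia markers (7 of 10 lower) and -0.15 for astrocyte markers (7 of 10 lower). After rescaling, astrocyte markers had a median of 0.0668 and 6 of 10 were higher. Microglia markers had -0.15, neuron markers -0.19 and oligodendrocyte lineage markers -0.28. Muscle and heart markers had -0.29, and endothelial and mural markers -0.39. The limma-voom medians were 0.35 for astrocyte (7 of 9 higher), 0.07 for neuron (9 of 16) and -0.06 for microglia markers (5 of 10). They were -0.19 for oligodendrocyte lineage and for endothelial and mural markers, and -0.41 for muscle and heart markers. The part of such cells in the channel values was not tested. The 10 sodium channel alpha genes were all lower as deposited (median -0.69), and 2 higher and 8 lower in limma-voom (-0.31). Glial and vascular channels, Kcnj8, Kcnj10 and Kcnj16, had a median of -0.26 as deposited and 0.14 in limma-voom. None of these lists had a member that passed.

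Genes that work with the channels were set beside them. Of 52 partners and related channels 51 were tested and 0 passed, with 8 higher and 43 lower in HypEV and a median log2 fold change of -0.45, beside -0.44 over all tested genes. Ank3, the scaffold that holds sodium and Kcnq channels at the axon initial segment, had the highest level of the list and the smallest p. It had 19.0, 35.8 and 20.8 FPKM in HypEV, each below the 40.3, 64.3 and 41.7 FPKM of NorEV (log2 fold change -0.95 ± 0.42 SE, unadjusted p = 0.0511, adjusted p = 0.720). Cntnap2, which places Kcna channels along axons, had 9.65, 22.9 and 10.6 FPKM in HypEV, against 17.97, 38.1 and 30.4 FPKM in NorEV (-0.99 ± 0.48 SE). Sptbn4, the spectrin of initial segments, had 13.2, 12.1 and 15.2 FPKM in HypEV, against 13.9, 11.1 and 12.3 FPKM in NorEV (0.11 ± 0.38 SE). These 3 were taken as the smallest p values and as an even one after the values were seen.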

How the data were processed

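Per the labels' protocols, RNA came from Trizol extraction and went through the Epibiotek mini longRNA-seq kit. FPKM values per Ensembl identifier were deposited by the authors, a table for each library. The vesicle isolation, the strandedness of the kit, the aligner, the build and the annotation are not given in the sources used here. Multiplying FPKM by the longest GENCODE M21 transcript length gave whole multiples of 1 read for 95.95% of the values above 0, within 0.01 reads, and for 81 of 85 channel genes in all libraries (not Cacnb3, Kcnh3, Kcnj4 and Kcnj6). Of 53379 identifiers 53274 were in M21 (GRCm38). Depths recovered this way hold only fragments counted on genes. limma-voom was run on the recovered reads of 42342 genes, with the reads on protein-coding genes as library size. Intervals are exact Poisson at 95%, a count of 0 allows up to 3 reads, and Wilson intervals of shares such as that of Gm23935 (49.2 to 49.3% in HypEV 1) cover counting error only.

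HypEV and NorEV were compared on log2(FPKM + 1) by limma 3.58.1 in R 4.3.3, with a variance trend and no covariate, in a two-sided test. The 44125 genes whose mean reached 1 FPKM were tested, with Benjamini-Hochberg adjustment over all of them. A fold change is on that scale, which understates the change of low genes. Samples with the same number in their titles were not treated as pairs in this test. Their deviations from the group means correlated at 0.04, 0.10 and -0.06. Deviations taken within such small groups cannot show whether the samples were pairs. The text names, per family, the gene with the highest mean and that with the smallest p, and a set of channels put down by name, of which some genes and sequences are not reported here; any other gene is said to be chosen after its values were seen or stands in a count. The channel genes and the lists were chosen with earlier results of these data known. Another pseudocount, filters, scalings, weights, a replicate block and fits without each library were tried as alternatives. On simulated data limma on log2(FPKM + 1) called fewer of the changed genes than limma-voom, and also some unchanged genes, where limma-voom called none. The other steps ran in Python 3.11.15 (numpy 2.4.6, pandas 2.3.3, matplotlib 3.10.9, scipy 1.17.1).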

Additional observations from a re-analysis of the deposited data

How the results depend on the processing

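The count of 0 channel genes that passed was the same under all 16 alternatives. The count over all tested genes, 7, was 0 with a pseudocount of 0.1, with no filter, with libraries centred on their median, with no variance trend and with the replicate block. It was 3 after rescaling to protein-coding genes, 75 with array weights, 57 in limma-voom and between 0 and 71 in fits that each lack a library, the 71 arising without HypEV 2. The median log2 fold change of the channel genes, -0.47, was -0.0229 after centring, -0.0252 after quantile normalization, -0.0379 in limma-voom and -0.68 (without HypEV 2) to -0.25 (without HypEV 1) with 1 library left out; these scalings move the libraries' own medians by construction. The part of library HypEV 2 in these counts was not tested further.

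Of 460 values of the 29 named genes under alternatives, 411 kept their sign, 49 of 12 genes changed it, and 0 passed (smallest adjusted p = 0.115). Centring gave positive values for Cacna1a (0.17), Cacna1b (0.29), Cacna1c (0.0565), Cacng8 (0.39), Kcnc2 (0.14), Kcnd3 (0.21), Kcnj10 (0.39), Scn1a (0.43), Scn2a (0.30) and Scn2b (0.24). Quantile normalization did so for Cacna1a (0.12), Cacna1b (0.26), Cacna1c (0.0176), Cacng8 (0.33), Kcnc2 (0.13), Kcnd3 (0.16), Kcnj10 (0.41), Scn1a (0.43), Scn2a (0.31) and Scn2b (0.23). In limma-voom they were Cacna1a (0.14), Cacna1b (0.34), Cacna1c (0.0658), Cacng8 (0.40), Kcnc2 (0.16), Kcnd3 (0.18), Kcnj10 (0.28), Scn1a (0.51), Scn2a (0.34) and Scn2b (0.26). Rescaling to protein-coding genes turned Cacna1b (0.0675), Cacng8 (0.15), Kcnj10 (0.11), Scn1a (0.20) and Scn2a (0.0504), and array weights turned Scn1a (0.21) and Scn2a (0.0513). With 1 library left out the range was -0.28 to 0.0527 for Cacna1b, -0.99 to 0.00698 for Cacna1s, -0.33 to 0.22 for Cacng8, -0.39 to 0.16 for Kcnj10, -0.00378 to 0.81 for Kcnj5, -0.25 to 0.29 for Scn1a, -0.40 to 0.23 for Scn2a and -0.58 to 0.0905 for Scn2b. The cause was not tested. With a median of 44 reads per channel gene and library, and 0 to 19 for Kcna10, counting error is part of each value.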
